A study of Mus musculus with 4 samples.

Results

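Collagen chain genes were followed in mouse forelimb buds with and without Cre deletion of Smarcc1 in limb mesenchyme. The 44 members are the genes of collagen alpha chains, found in the deposited table by Ensembl identifier through their mm10 GENCODE symbols, among 35689 genes in all. Each of the 4 RNA-sequencing libraries held the right and left forelimb pair of 1 embryo at E11.5. The 2 knockout embryos had the genotype PrxCre/+;Smarcc1c/c, that is, both Smarcc1 copies were conditional and PrxCre, a transgene, supplied Cre to the mesenchyme of the limb bud. The 2 control embryos, labelled Prx+/+;Smarcc1c/c, carried the same conditional alleles without the transgene, so Cre itself was present in the knockouts alone. In each genotype 1 embryo had 40 somites (replicate 1) and 1 had 39 somites (replicate 2). Ectoderm, blood, vessels, nerves and migrating muscle precursors lie outside the domain of PrxCre and are part of the sample. The product of Smarcc1, BAF155, holds the BAF chromatin remodelling complex together, and the series asks whether that complex serves GLI repression.

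Collagens are secreted proteins whose chains wind in threes into a triple helix, which needs a glycine in each of its repeating triplets of residues. Fibrillar collagens (types I, II, III, V, XI, XXIV and XXVII) build the banded fibrils of connective tissue and cartilage. Type IV chains form the sheet of basement membranes, where types XV and XVIII also lie. The fibril-associated collagens with interrupted helices, or FACITs, sit on the surface of fibrils. The remaining members include the beaded filaments of type VI, the anchoring fibrils of type VII, short-chain networks and transmembrane collagens of epithelia and neurons. In the early limb bud, loose mesenchyme makes types I and III, the first cartilage condensations turn to types II, IX and XI, and the surface ectoderm lies on a basement membrane. By these definitions the members held 11 fibrillar, 8 basement membrane, 9 FACIT and 16 other genes.

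The repeat that makes a collagen can be read in the coding sequences. Glycine is encoded by GGN, so a run of codon triplets that each open with GGN codes for an unbroken stretch of helix. In the GENCODE transcript with the longest coding sequence, all 44 members held a run of at least 20 such triplets, as did 20 of 21989 other coding genes (0.0910%). The median longest run was 338 triplets in fibrillar genes, 57 in FACIT genes, 41 in basement membrane genes and 45 in the others. The first 20 triplets of the longest run are shown for the 4 chains that passed the test below, with the GGN codons that open each triplet in capitals.
Col1a1: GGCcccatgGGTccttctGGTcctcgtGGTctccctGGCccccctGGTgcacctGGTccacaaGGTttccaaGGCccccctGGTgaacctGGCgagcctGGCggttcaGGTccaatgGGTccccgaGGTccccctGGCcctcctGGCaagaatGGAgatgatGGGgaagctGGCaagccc
Col12a1: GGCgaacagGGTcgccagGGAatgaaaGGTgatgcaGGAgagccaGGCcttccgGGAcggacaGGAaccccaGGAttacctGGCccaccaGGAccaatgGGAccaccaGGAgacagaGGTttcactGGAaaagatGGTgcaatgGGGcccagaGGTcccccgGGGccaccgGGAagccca
Col27a1: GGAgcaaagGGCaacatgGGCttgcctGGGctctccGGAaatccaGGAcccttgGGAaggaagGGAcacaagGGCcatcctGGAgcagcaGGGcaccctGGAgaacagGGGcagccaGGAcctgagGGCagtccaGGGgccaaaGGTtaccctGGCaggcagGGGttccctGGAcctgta
Col9a3: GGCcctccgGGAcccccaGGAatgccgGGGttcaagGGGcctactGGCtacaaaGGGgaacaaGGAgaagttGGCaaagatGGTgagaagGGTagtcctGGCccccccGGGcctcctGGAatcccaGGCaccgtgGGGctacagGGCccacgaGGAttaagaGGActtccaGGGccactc
These stretches begin at codon 168 of Col1a1, 2805 of Col12a1, 673 of Col27a1 and 177 of Col9a3. The run of Col1a1 went on for 338 triplets and that of Col27a1, a shorter fibrillar chain, for 217. Col9a3, with its partners Col9a1 and Col9a2, reached 113 triplets. In Col12a1, a large FACIT, the longest run was 32 triplets and 8.12% of codons lay in runs of at least 3 triplets, against 73.3% in Col1a1. Of the chains that rose, Col1a1 is fibrillar and Col12a1 a FACIT, and of those that fell, Col27a1 is fibrillar and Col9a3 a FACIT.

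**Figure D1:**
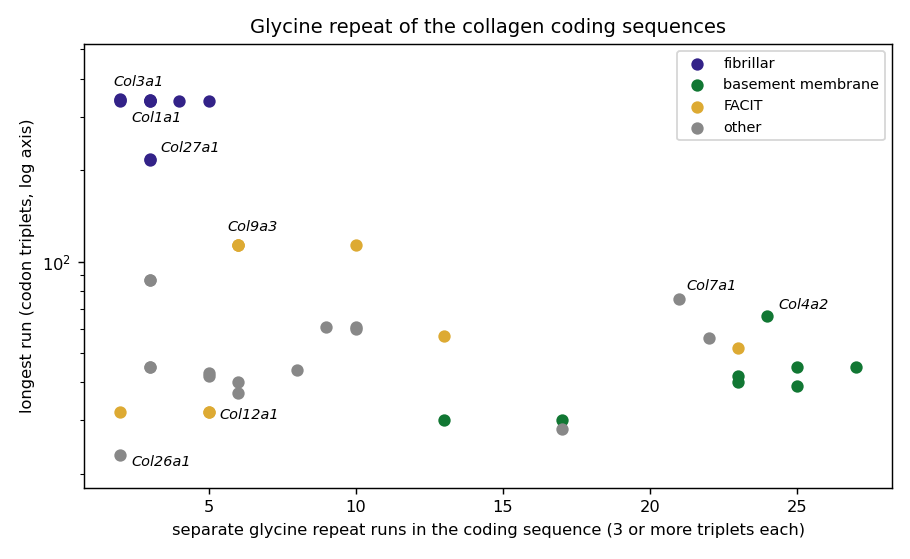
Longest run of glycine-opened codon triplets (y axis, triplets, log axis) against the number of separate runs of at least 3 triplets (x axis) for the 44 collagen coding sequences, coloured by class. Fibrillar genes lie at the upper left with at most 5 runs and a longest run of 216 to 344, and type IV genes lie at the lower right with 23 to 27 runs.

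Values are TPM, the share of transcripts scaled to a fixed total and corrected for transcript length, so that levels can be set side by side between genes. The read depth behind them is unknown, and the libraries held 12555 to 12689 genes at 1 TPM or more. The targeted gene, Smarcc1, stood at 112 and 119.6 TPM in the controls and at 46.2 and 38.4 TPM in the knockouts (-1.44 ± 0.13 on the log2 scale; limma adjusted p = 0.0117). Somite stage ran together with sex, with Y-linked Ddx3y at 30.2 and 28.3 TPM in both 39-somite libraries and no higher than 0.0498 TPM at 40 somites. Markers of limb mesenchyme were high in every library, with a sum between 602 and 706 TPM. Of the 6 tested, 2 lay above 0 and 4 below it, with a median of -0.12. Pdgfra was higher in the knockouts (1.03, limma adjusted p = 0.0165), and the other 5 did not pass. Of cell types outside the mesenchyme, erythroid markers summed to 9588 and 10239 TPM in the controls and 12000.2 and 11520.2 TPM in the knockouts, myoblast markers to 36.1 and 27.4 against 42.2 and 44.7 TPM. Macrophage markers summed to 21.6 and 30.0 against 20.7 and 16.9 TPM, and neuron and Schwann cell markers to 23.7 and 22.8 against 19.8 and 17.96 TPM. No member of these 4 lists passed in limma. Before adjustment 3 were higher and 1 was lower at p under 0.05, against 6.78% and 6.89% of all tested genes. Foxd3 was listed at 0 in both controls, and the part of these lists in the values of the chains was not tested. Chains were tested on the log2(TPM + 1) scale with limma over the 12809 genes that reached 1 TPM in at least 2 libraries, and fold changes on this scale understate the change of low genes. A fold change is knockout minus control, its error is the SE, n is 2 per genotype, and p-values are adjusted by the Benjamini-Hochberg method over all 12809 genes. With 2 libraries a side no exact permutation test can pass 0.05, so ratios and sums are given without one. The p-values set a difference against the spread between embryos of 1 genotype, which limma moderates with the variance trend over all tested genes. Within each genotype that spread also holds the difference of stage and sex. In whole buds, fewer cells of a type and less RNA per cell cannot be told apart.

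Col1a1 and Col12a1 rose in the knockout buds, and Col27a1 and Col9a3 fell. Of the 44 chains, 30 were tested, 2 were higher, 2 were lower and 26 did not pass, while among all tested genes 0.812% were higher and 0.492% were lower. Before adjustment, 7 chains were higher and 5 lower at p under 0.05, against 6.78% and 6.89% of all tested genes. Both knockouts lay above both controls for 9 chains and below them for 11, against 22.7% and 21.2% of all tested genes. The median fold change of the 30 chains was -0.15, beside 0.01 over all tested genes. By class the median was 0.20 for 9 fibrillar chains, -0.15 for 5 basement membrane chains, -0.18 for 6 FACITs and -0.32 for 10 others. The FACIT median was 0.29 at a filter of 5 TPM and 0.03 without knockout replicate 1, the median of the others was -0.11 without knockout replicate 2, and the fibrillar median was 0.0858 without control replicate 1. With no filter on low values all 4 calls were lost (limma adjusted p = 0.0915, 0.163, 0.198 and 0.198 for Col1a1, Col12a1, Col27a1 and Col9a3). With somite stage as a block, 5 chains were higher and 2 lower, against 2.08% of all tested genes on either side. Since the filter on low values chose these 30, the medians describe the chains that were expressed and not the family.

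**Figure D2:**
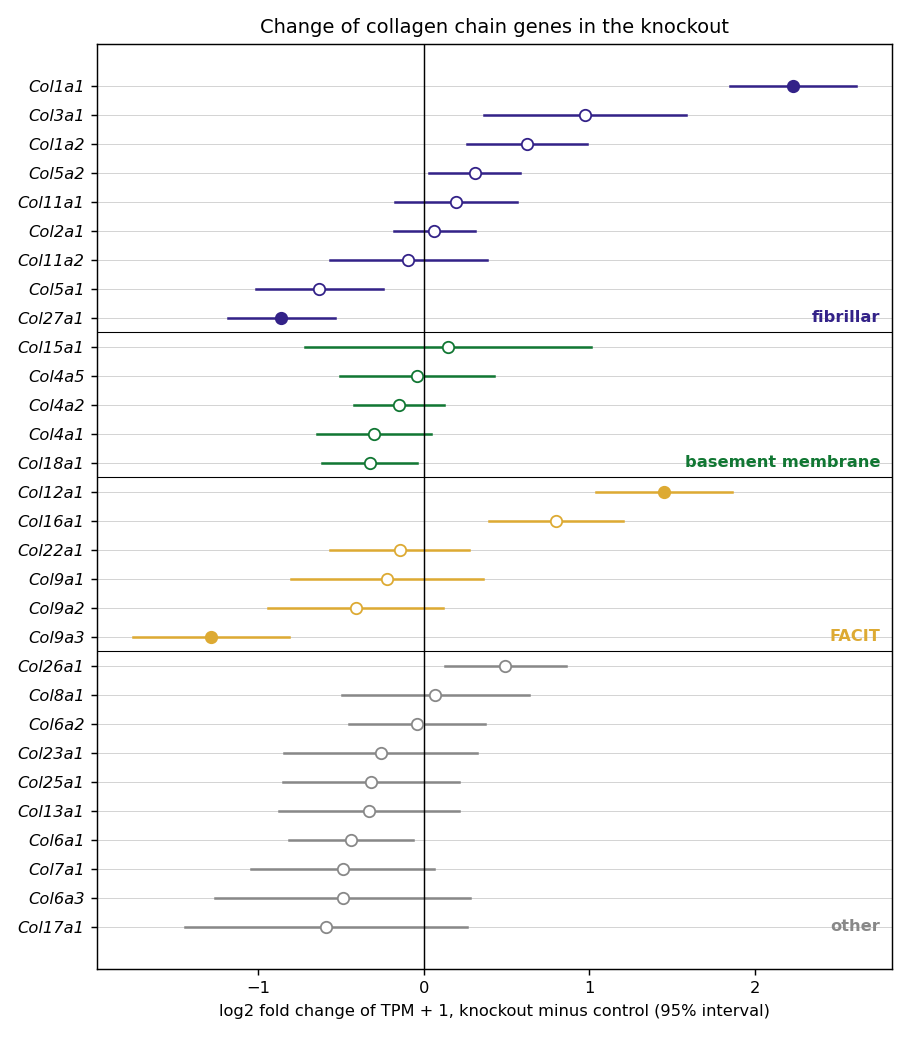
Fold change of each tested collagen chain gene (x axis, log2 of TPM + 1, knockout minus control) with its 95% interval from limma, 2 libraries per genotype, grouped and coloured by class. Filled points passed a Benjamini-Hochberg adjusted p of 0.05; Col1a1 at 2.23 and Col12a1 at 1.45 lie to the right, Col27a1 at -0.86 and Col9a3 at -1.28 to the left.

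Among fibrillar chains, Col1a1 changed most. Col1a1, the alpha 1 chain of type I collagen, stood at 9.61 and 10.7 TPM in the controls and at 45.1 and 58.5 TPM in the knockouts. The groups lay far apart, and the mean TPM was 5.10 times the control mean. The fold change was 2.23 ± 0.16 (SE, n = 2 each; limma adjusted p = 0.00694). Col1a1 (ENSMUSG00000001506) lies on chromosome 11 of mm10 from 94936224 to 94953042. At 40 somites the knockout was higher by 2.12 and at 39 somites by 2.35 on the log2 scale.

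Col1a2, the partner chain of type I, stood at 93.9 and 121.7 TPM in the controls and at 157.6 and 173.5 TPM in the knockouts. The groups did not overlap, but the chain did not pass (0.62 ± 0.15; limma adjusted p = 0.145). The ratio of Col1a1 to Col1a2 was 0.102 and 0.0880 in the controls and 0.286 and 0.337 in the knockouts. Col1a1 was thus the minor chain in every library, although the common type I trimer holds more alpha 1 than alpha 2 protein.

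Col3a1, the only chain of the type III homotrimer, was the most abundant collagen in the mean of each genotype. It stood at 111 and 135 TPM in the controls and at 185 and 315 TPM in the knockouts. The knockout library with 39 somites was well above the other, and the fold change of 0.98 ± 0.25 did not pass (limma adjusted p = 0.168). Type V chains start and limit the growth of type I fibrils, and they lay on opposite sides of 0. Col5a1 stood at 9.52 and 8.93 TPM in the controls and at 6.32 and 4.95 TPM in the knockouts. Col5a2 stood at 33.0 and 29.7 against 38.7 and 39.4 TPM. Exons of Col5a1 overlap 2 noncoding genes of the other strand, by 99 and 113 bases at the largest overlap of a single pair of exons. Neither chain overlapped between genotypes and neither passed (-0.63 ± 0.16 and 0.31 ± 0.11; limma adjusted p = 0.160 and 0.305). The ratio of Col5a1 to Col5a2 was 0.289 and 0.300 in the controls and 0.163 and 0.126 in the knockouts. Over all alternative settings, each library left out among them, fold changes ran from 0.44 to 0.81 for Col1a2. For Col3a1 they ran from 0.59 to 1.36 and for Col5a1 from -0.78 to -0.42.

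Col27a1, a fibrillar chain with a shorter helix that is best known from cartilage, fell. It stood at 9.56 and 9.65 TPM in the controls and at 4.71 and 4.97 TPM in the knockouts. Libraries of one genotype were close together, and the control mean was 1.98 times the knockout mean. The fold change was -0.86 ± 0.13 (SE, n = 2 each; limma adjusted p = 0.0465), with -0.89 at 40 and -0.83 at 39 somites. Col27a1 (ENSMUSG00000045672) lies on chromosome 4 from 63214004 to 63334991. The call was lost without control replicate 1 or 2 (limma adjusted p = 0.135 and 0.139) and at a filter of 5 TPM (0.0505).

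Col2a1, which builds the main fibrils of cartilage, stood at 75.7 and 73.6 TPM in the controls and at 77.4 and 78.9 TPM in the knockouts. Its fold change was 0.06 ± 0.10 with a 95% interval from -0.18 to 0.31, and it did not pass (limma adjusted p = 0.855). Col11a1, which joins type II fibrils, stood at 7.52 and 9.48 against 9.70 and 9.94 TPM, and its interval ran from -0.18 to 0.57. Col11a2 was near 1 TPM, between 0.680 and 1.15 over the 4 libraries, and the genotypes overlapped. Of the cartilage progenitor markers, 5 of 9 were tested and none passed, their sum was 55.9 and 60.5 TPM in the controls and 63.5 and 69.6 TPM in the knockouts, and Snorc was listed at 0 in 3 libraries. Their part in the values of the cartilage chains was not tested.

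**Figure D3:**
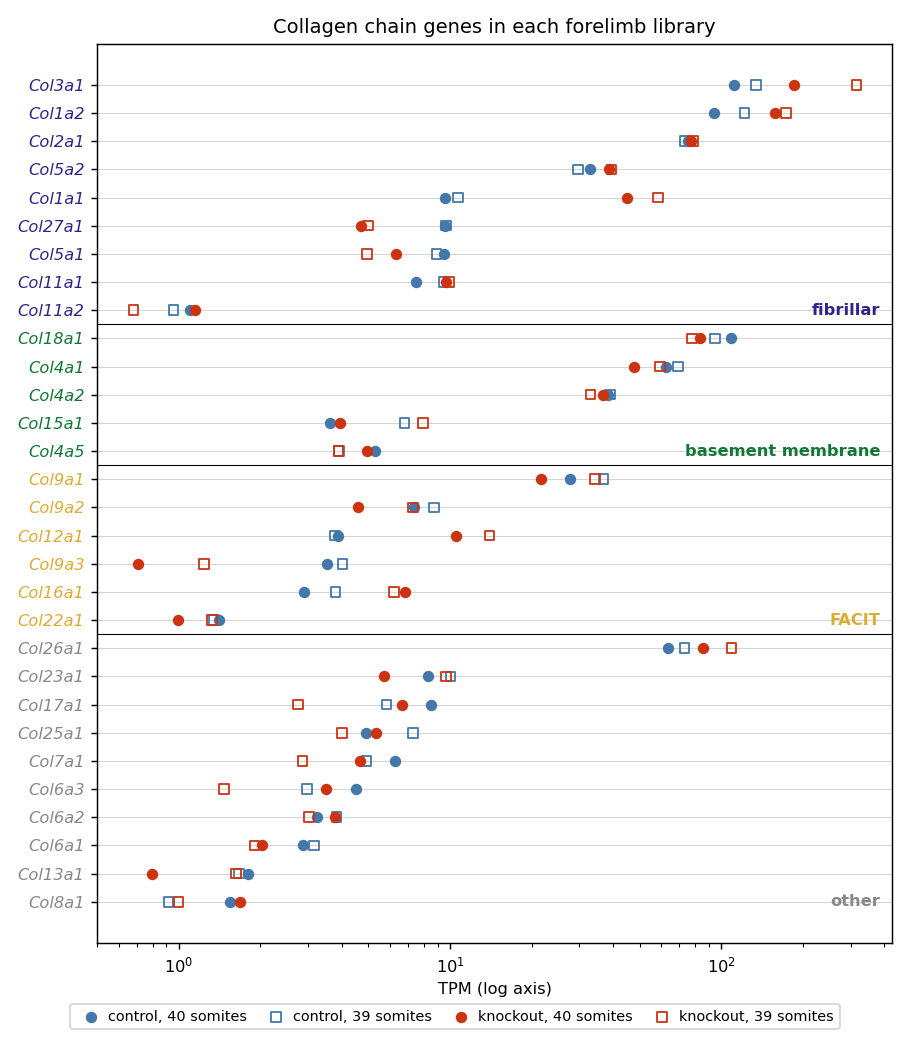
TPM of the 30 tested collagen chain genes (x axis, log axis) in each library, ordered within class by control mean; circles are 40-somite and open squares 39-somite embryos, blue control and red knockout. Col3a1, Col1a2, Col18a1, Col2a1, Col26a1 and Col4a1 form the upper range, and the red points of Col1a1 and Col12a1 lie to the right of the blue ones.

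The make-up of collagen transcripts differed between the genotypes, with more of it fibrillar in the knockouts. Summed over the 44 genes, collagen TPM was 726 and 789 in the controls and 871 and 1072 in the knockouts. Fibrillar chains took 48.4% and 50.7% of that sum in the controls and 60.4% and 64.0% in the knockouts. Basement membrane chains took 30.2% and 27.2% in the controls and 20.4% and 17.1% in the knockouts. The basement membrane sum was 219 and 214 TPM in the controls against 177 and 183 TPM in the knockouts, where it was lower. TPM is itself a share of all transcripts, so this sum is no absolute level, and no basement membrane chain passed. FACITs took between 5.28% and 7.47% and the other chains between 12.9% and 14.7%. Col3a1, which did not pass, took 15.3% and 17.1% of collagen TPM in the controls and 21.3% and 29.4% in the knockouts, the widest gap of any fibrillar chain. Col1a1 went from 1.32% and 1.36% of collagen TPM to 5.18% and 5.46%, and from place 10 to place 7 among the chains by mean TPM. Col12a1 went from place 21 to place 11. The 6 highest chains held between 71.1% and 75.9% of collagen TPM in each library. As shares of 1 sum, these values depend on one another.

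**Figure D4:**
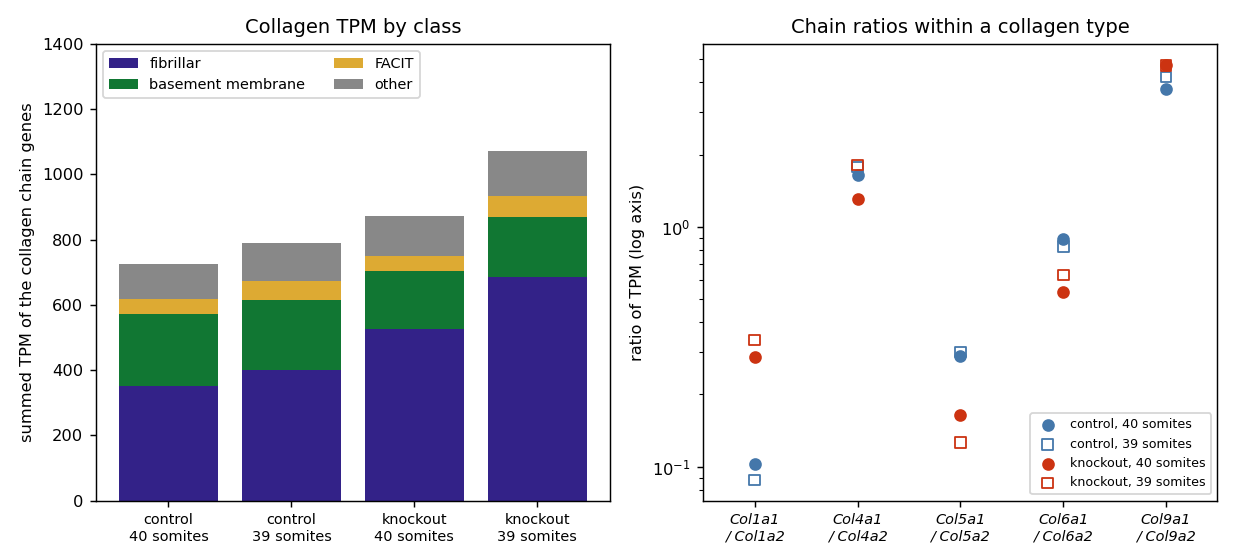
Left, summed TPM of the collagen chain genes by class in each library (bars from 0); right, ratio of TPM between chains of 1 collagen type (log axis) in each library, blue control and red knockout, circles 40 and squares 39 somites. The fibrillar part of the bars is 352 and 400.2 TPM high for the controls, and 527 and 686 TPM high for the knockouts. The Col1a1 to Col1a2 and Col5a1 to Col5a2 ratios separate by genotype in opposite directions. The Col6a1 to Col6a2 and Col9a1 to Col9a2 ratios also separate, and the Col4a1 to Col4a2 ratio overlaps.

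The FACITs moved both ways. Col12a1, a homotrimer on the surface of type I fibrils in dense connective tissue, stood at 3.85 and 3.76 TPM in the controls and at 10.6 and 14.0 TPM in the knockouts. The control libraries were close together and both knockouts well above them, with a mean 3.22 times the control mean. The fold change was 1.45 ± 0.17 (SE, n = 2 each; limma adjusted p = 0.0228). Col12a1 (ENSMUSG00000032332) lies on chromosome 9 from 79598991 to 79718831. Without control replicate 1 or 2 limma's adjusted p was 0.0745 and 0.0752, with fold changes of 1.47 and 1.44. Col16a1, a FACIT of several matrices, stood at 2.89 and 3.79 against 6.81 and 6.22 TPM. The groups were apart, with a fold change of 0.80 ± 0.17 that did not pass (limma adjusted p = 0.104). Over the alternatives the fold change of Col16a1 ran from 0.47 to 0.96.

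Col9a3 fell. Type IX collagen is a trimer of 3 different chains on the surface of cartilage fibrils, and Col9a3 encodes its alpha 3 chain. It stood at 3.53 and 4.01 TPM in the controls and at 0.710 and 1.24 TPM in the knockouts, so that the control mean was 3.87 times the knockout mean. Of the knockouts 1 lay below 1 TPM, so Col9a3 met the filter on low values through its controls. No value reached 5 TPM, so it was not tested at that filter. The fold change was -1.28 ± 0.19 (SE, n = 2 each; limma adjusted p = 0.0432). Col9a3 (ENSMUSG00000027570) lies on chromosome 2 from 180597790 to 180622189. Its exons overlap Tcfl5 on the other strand, and the largest overlap of a single pair of exons is 234 bases. Tcfl5 stood between 0.376 and 0.938 TPM, and since strand use in counting is not given in the sources used here, reads of the overlap cannot be assigned. The call was lost without control replicate 1 or 2 (limma adjusted p = 0.126 and 0.150), under median-ratio scaling (0.0536), quantile normalization (0.0751) and a pseudocount of 0.1 (0.0662).

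The partner chains of type IX were less far apart. Col9a1 stood at 27.8 and 36.8 TPM in the controls and at 21.7 and 34.3 TPM in the knockouts, and the genotypes overlapped. Col9a2 stood at 7.39 and 8.75 against 4.58 and 7.29 TPM, without overlap. Both missed the threshold (-0.22 ± 0.24 and -0.41 ± 0.22; limma adjusted p = 0.771 and 0.494). The ratio of Col9a3 to Col9a1, which was computed after the values were seen, was 0.127 and 0.109 in the controls and 0.0327 and 0.0361 in the knockouts. The ratio of Col9a1 to Col9a2 was 3.76 and 4.21 in the controls and 4.74 and 4.70 in the knockouts. Col22a1, a FACIT of tissue junctions, stood at 1.41 and 1.35 against 0.994 and 1.33 TPM and did not pass.

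No basement membrane chain passed in limma. Of the 5 tested Col18a1 alone had an unadjusted p under 0.05, on the lower side, against 6.89% of all tested genes. Col18a1, whose C-terminal fragment is endostatin, stood at 108.7 and 94.8 TPM in the controls and at 83.7 and 78.0 TPM in the knockouts. The groups did not overlap, and the fold change was -0.33 ± 0.12 (limma adjusted p = 0.297). Col4a1 and Col4a2 form the common type IV trimer. Col4a1 stood at 62.7 and 69.2 against 47.6 and 59.6 TPM, and Col4a2 at 38.2 and 39.0 against 36.6 and 33.0 TPM. In both, the knockouts lay below the controls, with intervals from -0.65 to 0.04 and from -0.42 to 0.12. The ratio of Col4a1 to Col4a2 was 1.64 and 1.78 in the controls and 1.30 and 1.81 in the knockouts, and so overlapped. Col4a5, of a rarer type IV trimer, stood between 3.88 and 5.27 TPM, higher in the 40-somite library of each genotype. Surface ectoderm, which lies on such a membrane, had 12 of 12 markers below 0, as were 6179 of all 12809 tested genes, and none passed in limma. Of these markers 4 had an unadjusted p under 0.05 and 4 were without overlap between genotypes, against 6.89% and 21.2% of all tested genes on the lower side. The summed TPM of the ectoderm markers was 637 and 417 in the controls and 499 and 315 in the knockouts. Their part in the values of the chains was not tested.

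Col15a1, a basement membrane collagen of vessels and muscle, differed more between the 40-somite and 39-somite libraries than between genotypes. It stood at 3.60 and 3.92 TPM in the control and knockout with 40 somites and at 6.79 and 7.95 TPM in those with 39 somites. With 1 embryo per stage in each genotype, stage, sex and embryo cannot be told apart in this split. The genotype difference was 0.15 ± 0.35, with an interval from -0.71 to 1.01 (limma adjusted p = 0.915). Its sign turned without control replicate 1 (-0.23) or knockout replicate 2 (-0.28). The 10 endothelial markers were split in the same way, with a sum of 81.3 and 98.8 TPM at 40 somites and 142.8 and 138.0 TPM at 39 somites in control and knockout. Their part in the level of Col15a1 was not tested.

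Of the 10 other chains tested none passed in limma. Before adjustment Col26a1 was higher and Col6a1 lower at p under 0.05, against 6.78% and 6.89% of all tested genes. Col26a1, a small collagen with few helix repeats, was the highest of these 10 chains, at 63.9 and 73.4 TPM in the controls and 85.8 and 109.0 TPM in the knockouts. The groups did not overlap (0.49 ± 0.15, limma adjusted p = 0.229), and over the alternatives the fold change ran from 0.32 to 0.66. Col6a1, Col6a2 and Col6a3 make the beaded filaments that surround cells. Col6a1 stood at 2.87 and 3.15 TPM in the controls and at 2.02 and 1.9001 TPM in the knockouts, with a fold change of -0.44 ± 0.15 that did not pass (limma adjusted p = 0.292). Its ratio to Col6a2 was 0.889 and 0.825 in the controls and 0.535 and 0.629 in the knockouts. Col6a2 lay between 3.02 and 3.82 TPM and Col6a3 between 1.47 and 4.505 TPM, and both overlapped between genotypes. Over the alternatives the fold change of Col6a3 ran from -0.92 to -0.06.

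Col17a1 and Col7a1 are made by epithelia that sit on a basement membrane. Col17a1, the transmembrane collagen of hemidesmosomes, stood at 8.49 and 5.84 TPM in the controls and at 6.65 and 2.75 TPM in the knockouts. Col7a1, of the anchoring fibrils, stood at 6.28 and 4.93 against 4.67 and 2.86 TPM. In each genotype the 40-somite library was the higher, as it was for the summed ectoderm markers given above. Neither chain passed (-0.59 ± 0.35 and -0.49 ± 0.23; limma adjusted p = 0.547 and 0.428). Over the alternatives the fold change of Col17a1 ran from -1.10 to -0.08. The part of the ectoderm markers in these values was not tested. Of the other transmembrane collagens, Col23a1 and Col25a1 overlapped between genotypes and Col13a1 came close to it. Col23a1 stood at 8.28 and 10.04 against 5.71 and 9.66 TPM. Col25a1, a neuronal collagen also called CLAC-P, stood at 4.91 and 7.30 against 5.32 and 3.99 TPM. Col13a1, of muscle and nerve contacts, stood at 1.80 and 1.67 against 0.796 and 1.63 TPM, and the short-chain Col8a1 between 0.915 and 1.68 TPM.

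The remaining 14 chains did not reach 1 TPM in 2 libraries and were not tested. The highest single value among them was 1.10 TPM, for Col8a2 in 1 knockout library. Col10a1, the chain of hypertrophic cartilage, was listed at 0 or at most at 0.0230 TPM in each library. Col14a1, a relative of Col12a1, reached 0.0961 TPM, and Col5a3 0.0281 TPM. Col24a1 stood between 0.395 and 0.840 TPM, Col19a1 between 0.244 and 0.659 TPM, and Col20a1, Col6a4 and Col6a6 at or below 0.119 TPM. The kidney-type chains Col4a3 and Col4a4 stayed at or below 0.0241 TPM. Of the 14, 3 separated by genotype, where 43.9% of all tested genes did so in either direction: Col28a1, at 0.548 and 0.356 against 0.231 and 0.183 TPM; Col4a6, at 0.871 and 0.698 against 0.664 and 0.469 TPM; and Col6a5, with 0.00382 and 0.0613 against 0.0862 and 0.114 TPM. At these levels such values rest on few fragments of unknown number.

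Several collagen genes lie near one another, and where both members of such a pair were tested their fold changes had the same sign. None of these chains passed, and neighbouring genes outside the family were not compared. Col3a1 and Col5a2 lie on chromosome 1 on opposite strands with 24614 bases between them, and both lay above 0 (0.98 and 0.31). Col4a1 and Col4a2 lie head to head on chromosome 8 and they overlap by 22 bases at their starts, and their values were -0.30 and -0.15. Col6a2, Col6a1 and Col18a1 lie within reach of one another on chromosome 10 on the same strand, 85161 and 326009 bases apart, at -0.04, -0.44 and -0.33. The sign of Col6a2 turned without control replicate 2 (0.05) or knockout replicate 2 (0.08). Col9a3 and Col20a1 are 364345 bases apart on chromosome 2, and Col20a1 was too low to test. Col1a1 and Col1a2, which share a trimer, lie on chromosomes 11 and 6.

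RefSeq start sites were at hand for 35 of the 44 genes, on the GRCm38.p6 assembly that matches mm10. Col1a1, Col12a1 and Col9a3 were not among them. The 250 bases upstream of the start are shown for Col3a1 and Col5a1, fibril chains on opposite sides of 0, and for Col27a1, which fell. The RefSeq start of Col27a1 lies inside the gene as GENCODE draws it, so its window is downstream of the gene start given above. Capitals mark matches on either strand to short promoter motifs, searched letter for letter. The first was TATAAA, a core promoter element. The second was CCAAT, a common element upstream of it. The last was GGGCGG, frequent in promoters rich in G and C. In these 3 windows no match overlaps one of another motif.
Col3a1: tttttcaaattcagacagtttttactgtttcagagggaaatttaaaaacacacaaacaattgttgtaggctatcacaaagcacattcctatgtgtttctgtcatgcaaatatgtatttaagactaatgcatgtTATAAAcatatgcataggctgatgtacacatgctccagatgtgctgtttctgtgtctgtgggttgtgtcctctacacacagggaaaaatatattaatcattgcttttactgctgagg
Col5a1: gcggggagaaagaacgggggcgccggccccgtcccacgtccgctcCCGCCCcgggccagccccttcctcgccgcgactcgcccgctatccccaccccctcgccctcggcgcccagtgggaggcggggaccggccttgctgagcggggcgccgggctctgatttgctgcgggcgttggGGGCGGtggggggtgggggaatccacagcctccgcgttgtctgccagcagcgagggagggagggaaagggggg
Col27a1: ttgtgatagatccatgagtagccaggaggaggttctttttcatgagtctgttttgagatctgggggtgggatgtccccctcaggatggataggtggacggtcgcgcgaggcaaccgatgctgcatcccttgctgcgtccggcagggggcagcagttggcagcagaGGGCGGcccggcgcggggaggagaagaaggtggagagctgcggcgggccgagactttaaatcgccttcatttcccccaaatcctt
The windows are chr1:45311288-45311537 for Col3a1, chr2:27886175-27886424 for Col5a1 and chr4:63215162-63215411 for Col27a1, all on the plus strand. The Col3a1 window had 35.2% G and C and 1 TATAAA match that starts 117 bases before the gene. The Col5a1 window had 76.4% G and C and 2 GGGCGG matches, and the Col27a1 window 59.6% and 1 such match. Over the collagen genes, TATAAA was found for 5 of 35, CCAAT for 13 and GGGCGG for 21. A gene was counted if any of its windows had a match, and the 35 genes had 38 windows. Over all 32536 distinct RefSeq windows of this length the shares were 12.3%, 33.8% and 33.0%, counted by window and not by gene. Such matches are letters in a window and say nothing of which factor binds.

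Genes that fold, process, crosslink, bind or regulate collagen were read beside the chains. Lox, which encodes the lysyl oxidase that starts crosslinking of fibrils, and Osr2, a zinc finger gene of limb connective tissue and joints, rose. Of 67 genes in 6 lists, 56 were tested, 2 were higher, none was lower and 54 did not pass, and in all tested genes 0.812% were higher and 0.492% lower. Before adjustment, 11 were higher and 6 lower at p under 0.05, against 6.78% and 6.89% of all tested genes, and the median was -0.02. These lists were drawn up with earlier results of these data known.

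Lox stood at 0.795 and 0.715 TPM in the controls and at 7.50 and 6.33 TPM in the knockouts, 9.16 times the control mean. Its fold change was 2.17 ± 0.16 (SE, n = 2 each; limma adjusted p = 0.00726), with the genotypes far apart. Both controls lay below 1 TPM, so Lox entered the test through the knockouts alone. The fold change was 1.05 with a pseudocount of 5 and 3.03 with one of 0.1, and with no filter on low values the call was lost (limma adjusted p = 0.0915). Its relatives Loxl2 and Loxl1 lay on the other side of 0. Loxl2, which also crosslinks type IV collagen, stood at 9.998 and 10.6 against 4.72 and 5.81 TPM, and Loxl1 at 2.03 and 1.93 against 0.977 and 1.31 TPM. Both lay lower in the knockouts and neither passed (-0.86 ± 0.15 and -0.48 ± 0.17; limma adjusted p = 0.0677 and 0.297). Over the alternatives the fold change of Loxl2 ran from -0.98 to -0.58. The ratio of Lox to Loxl2, computed after the values were seen, was 0.0795 and 0.0672 in the controls and 1.59 and 1.09 in the knockouts, so the more abundant of the pair was Loxl2 in the controls and Lox in the knockouts.

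Of 18 tested genes of collagen folding and hydroxylation none passed, and their median was 0.07. Plod1, a lysyl hydroxylase named after its values were seen, stood at 15.6 and 21.9 against 26.2 and 31.4 TPM (0.61 ± 0.19, limma adjusted p = 0.229). Its fold change ran from 0.38 to 0.84 over the alternatives. P4ha3 and P4ha2 encode catalytic subunits of prolyl 4-hydroxylase, which stabilises the helix. P4ha3 stood at 0.902 and 1.01 TPM in the controls and at 3.12 and 2.02 TPM in the knockouts, and P4ha2 at 18.7 and 17.3 against 12.5 and 12.7 TPM (0.85 ± 0.20 and -0.48 ± 0.12; limma adjusted p = 0.143 and 0.162). With 1 control below 1 TPM, P4ha3 met the filter on low values through its knockouts, and over the alternatives its fold change ran from 0.34 to 1.31. Of 9 genes of export and processing none passed, and their median was -0.01. Adamts3, a procollagen N-proteinase, stood at 3.09 and 2.77 against 1.55 and 1.09 TPM (-0.77 ± 0.18, limma adjusted p = 0.130). Its fold change ran from -1.12 to -0.33 over the alternatives. Pcolce2, an enhancer of C-propeptide removal, stood at 2.64 and 4.28 against 4.53 and 5.72 TPM.

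Of 7 receptors none passed, and their median was -0.06. Ddr2, a receptor kinase for fibrillar collagen, stood at 27.1 and 31.1 TPM in the controls and at 37.2 and 36.9 TPM in the knockouts. Mrc2, an endocytic collagen receptor, stood at 25.2 and 31.0 against 34.3 and 37.5 TPM. Of the collagenases, Mmp2 and Mmp14 were expressed well above 1 TPM. Mmp2 stood at 100.05 and 129.9 against 95.7 and 127.2 TPM, with its higher value at 39 somites in each genotype. Mmp14, a membrane-bound collagenase, stood at 47.3 and 52.3 against 40.2 and 43.4 TPM. The other 4, Mmp1a, Mmp8, Mmp9 and Mmp13, reached at most 0.115 TPM in any library.

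Among 16 regulators, 1 was higher, none was lower and the median was -0.04. Osr2 stood at 28.1 and 31.1 TPM in the controls and at 71.0 and 98.3 TPM in the knockouts (1.47 ± 0.17; limma adjusted p = 0.0228). Its adjusted p from limma was 0.0781 without control replicate 1, 0.0652 without control replicate 2 and 0.161 with no filter on low values. Its relative Osr1 stood at 10.9 and 8.18 against 17.4 and 20.7 TPM (0.93 ± 0.17, limma adjusted p = 0.0797). The fold change of Osr1 ran from 0.73 to 1.12 over the alternatives. Prrx1, a homeobox gene of limb mesenchyme, stood at 188 and 201 against 130 and 140 TPM (-0.53 ± 0.11; limma adjusted p = 0.101). Markers of pericytes and smooth muscle, which also make collagen, had 6 of 9 members tested and none that passed. Of the 6, 2 lay above 0, Rgs5 at 0.53 and Cspg4 at 0.45, and 4 lay below it, with a median of -0.18. The sum of all 9 was 56.5 and 59.4 TPM in the controls and 49.8 and 51.2 TPM in the knockouts, and Kcnj8 was listed at 0 in 1 library. The part of these markers in the rise of Col1a1, Col12a1 and Lox was not tested.

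**Figure D5:**
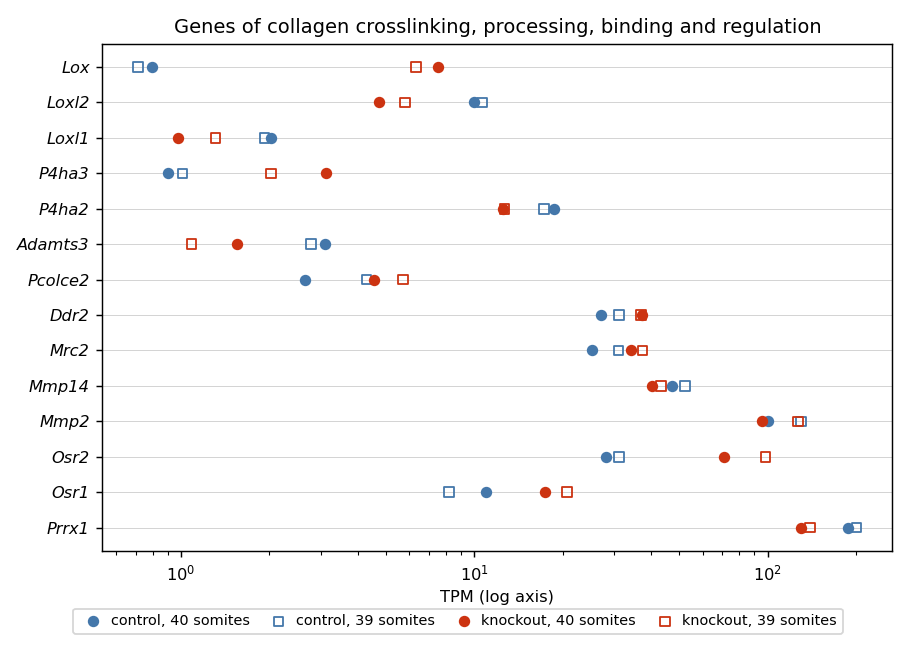
TPM (x axis, log axis) of genes named from the lists of collagen crosslinking, hydroxylation, processing, binding, breakdown and regulation in each library. Blue is control, red knockout, circles 40 and squares 39 somites. Plod1, Mmp1a, Mmp8, Mmp9 and Mmp13 are not drawn. Lox and Osr2 lie to the right in both knockouts, at 7.50 and 6.33 and at 71.0 and 98.3 TPM, whereas Loxl2 lies to the left.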

How the data were processed

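RNA from 4 forelimb pairs was sequenced on a DNBseq instrument, per the labels' protocols. The authors deposited 1 table of TPM for 35727 Ensembl genes, each column summing to 1000000, and Salmon 1.9.0 and mm10 are named in the submitters' processing notes without settings. The transcript set is not given in the sources used here, and TPM keeps no depth. Columns were matched to titles, 1 of which lacked a letter. Symbols were found for 35422 identifiers (99.1%), and repeated symbols were summed. The test was limma 3.58.1 in R 4.3.3 on log2(TPM + 1), with eBayes and a variance trend, no covariate, and Benjamini-Hochberg adjustment at 0.05. It was also run on simulated data whose noise came from limma's own variance model of these libraries, so that run is no independent check. The members and lists were chosen with earlier results of these data known. All members are accounted for: those that passed or had a mean of at least 5 TPM by their 4 values, the rest by ranges or, where groups did not overlap, values. From each list, genes that passed and the 2 next smallest p-values are named. Sc65 is an older symbol of P3h4 and was counted once. Intervals rest on the spread between 2 embryos per genotype, moderated by limma with that of the other tested genes. Alternatives were other pseudocounts (0.1, 5), filters, scalings, variance settings, a stage block, a threshold of 0.1 and each library left out.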

Additional observations from a re-analysis of the deposited data

How the results depend on the processing

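The medians of each class and the results of the pathway lists were put through the alternatives after the data had been seen. Over the 30 tested chains, with 13 or 14 alternatives each and the threshold of 0.1, 405 fold changes kept their sign and their side of the threshold, 14 lost and 10 gained a call, and 11 uncalled ones changed sign. Filters, variance settings, the stage block and the threshold left each fold change as it was, so no sign could change there. Of the 30 chains, 26 were uncalled in the main fit, so the number kept says little of the 4 calls. Over all alternatives fold changes ran from 1.896 to 2.42 for Col1a1, 0.96 to 1.65 for Col12a1, -0.97 to -0.57 for Col27a1 and -1.89 to -0.55 for Col9a3.

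Unfiltered, limma called 0 genes (2338 at an unadjusted p under 0.05), hence 0 chains on either side and 0 pathway genes higher, and Col1a1 had an adjusted p of 0.0915. The chains' median was then -0.0405, and the class medians were 0.0649 (fibrillar), -0.0939 (basement membrane) and -0.15 (other). With a filter at 5 TPM 0 chains were lower, 20 chains were tested and the medians were -0.0419 (all), 0.25 (fibrillar), -0.23 (basement membrane) and 0.29 (FACIT). With a pseudocount of 0.1 there was 1 lower chain, and the medians were -0.21 (all), 0.22 (fibrillar) and -0.46 (other). With a pseudocount of 5 they were -0.0854, 0.14 and -0.19. Median-ratio scaling and quantile normalization left 1 lower chain each, the first with a median of -0.16 over all chains and the second with -0.17 over basement membrane chains. Without mitochondrial genes the chains' median was -0.15. A robust variance gave 275 genes and 1 lower pathway gene, and a threshold of 0.1 gave 316 and 1.

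With somite stage as replicate block, 533 genes passed, 5 chains were higher (Col1a2, Col3a1 and Col26a1 joining, limma adjusted p = 0.0335, 0.0332 and 0.0398) and of the pathway genes 3 were higher (Plod1 joining, limma adjusted p = 0.0398) and 2 lower (Loxl2 and Prrx1, 0.0299 and 0.0293). Stage, which ran together with sex, is all that pairs the samples: over 12809 genes, which are no independent replicates, libraries of 1 stage deviated together with a Pearson r of 0.250 and a Spearman rho of 0.364. With 2 pairs this does not establish a pairing.

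Leaving out 1 library gave 50 to 646 genes, 1 to 5 higher and 0 to 5 lower chains, and 1 to 5 higher and 0 to 2 lower pathway genes. The lowest numbers came without a control and the highest without a knockout library. The chains' median ran from -0.20 to -0.0754, and the class medians from 0.0858 to 0.24 (fibrillar), -0.28 to -0.18 (basement membrane), -0.40 to 0.03 (FACIT) and -0.32 to -0.11 (other). In such fits the lone library is assumed to vary like the other group, and stage is unbalanced. The cause of these shifts was not tested. The unknown depth limits all chains near 1 TPM.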
